A study of Danio rerio with 6 samples.

Results

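The genes of the mitochondrial genome were followed in livers of zebrafish (Danio rerio) larvae, taken as every entry of the deposited gene table that Zv9 places on the mitochondrial chromosome (M). The rule gave 36 of 21589 entries, and the other 21553 are nuclear. The 36 entries are 13 protein-coding genes, 22 transfer RNA (tRNA) genes and the gene of the small ribosomal RNA, mt-rnr1. All 36 passed the filter on low counts. Livers of larvae that overexpress foxn3 from a transgene were compared with those of wild-type siblings, all at 7 days post fertilization, with 3 libraries of total RNA per group. The labels name no other allele or agent and do not give the promoter of the transgene, the number of larvae pooled in a library or whether libraries came from separate clutches, so the p-values cover no more than the spread among these libraries, which may be technical.

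The mitochondrial genome is a small circle that is copied into RNA from both strands as long precursors. These are cut mostly at the tRNA genes that lie between the other genes, which releases the messenger and ribosomal RNAs. Its proteins are core subunits of the respiratory chain and of ATP synthase, the machinery of oxidative phosphorylation, and all its other proteins are made from nuclear genes. Liver cells are rich in mitochondria, which carry out fatty acid oxidation and parts of gluconeogenesis and of the urea cycle.

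Only the 13 protein genes carry a gene symbol in the deposited table. The other 23 entries have clone-style names such as AC024175.17, and they are called here by the names that a RefSeq table of the newer assembly GRCz12tu gives to the genes in the same places. All 36 entries lie in the order of that table, all 36 start at its bases and their lengths differ by at most 8 bp. The assignment rests on position alone. The table lists 37 mitochondrial genes, and the large ribosomal RNA gene mt-rnr2, between trnV and trnL1, was not analysed here. By the deposited annotation 27 entries lie on the plus strand and 9 on the minus strand, the latter being mt-nd6 and the tRNA genes trnQ, trnA, trnN, trnC, trnY, trnS1, trnE and trnP.

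Library totals ranged from 7732478 to 12550954 counts. The labels were checked with foxn3, which had 304, 246 and 322 counts in wild-type libraries 1 to 3 and 1983, 2206 and 2540 in transgenic libraries 1 to 3. The 7 hepatocyte markers found in the table, among them the transferrin gene tfa, held 3.93 to 5.65% of the counts of a library. No marker listed here was at 0 in any library. Markers of other tissues held less: 15 exocrine pancreas genes 0.30 to 1.07%, 12 skeletal muscle genes 0.054 to 0.15%, 6 heart muscle genes 0.0071 to 0.035%, 4 intestine genes 0.042 to 0.13% and 4 erythrocyte genes 0.0063 to 0.023%. Of the pancreas genes 14 of 15 had a log2 fold change above 0, with a median of 0.90. By edgeR 5 of these 15 had an unadjusted p under 0.05, beside 2.25% of all genes. At that threshold edgeR also had 1 of 7 hepatocyte genes and 1 of 4 intestine genes. It had 0 skeletal muscle, 0 heart muscle and 0 erythrocyte genes. Values were above 0 for 5 of 7 hepatocyte, 2 of 12 skeletal muscle, 1 of 4 intestine, 4 of 4 erythrocyte and 0 of 6 heart muscle genes. The lowest was -0.85 among hepatocyte genes and -6.25 among intestine genes. The part of tissue make-up in the mitochondrial values was not tested.

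The mitochondrial entries together took 7.49, 6.14 and 5.83% of the counts of wild-type libraries 1 to 3. In transgenic libraries 1 to 3 they took 7.14, 6.74 and 7.37%. Wild-type library 1 was the highest of all and wild-type library 3 the lowest, so the groups overlapped, with means of 6.49 ± 0.88% and 7.08 ± 0.32% (SD, n = 3 each). The protein genes held 5.69, 5.47 and 5.09% in wild-type libraries and 6.04, 5.35 and 5.90% in transgenic libraries, and the groups overlapped. Of the library totals after TMM scaling, a normalization that corrects for library make-up, they held 5.53, 5.14 and 5.27% and then 5.80, 6.31 and 5.55%. On that scale the transgenic values were all higher, with transgenic library 2 moving from next to lowest to highest, so the separation depended on the scaling. The tRNA entries held 0.28 to 0.30% in every library. In bulk RNA, a difference in the number of mitochondria-rich cells and a difference in mitochondrial RNA per cell cannot be told apart.

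**Figure D1:**
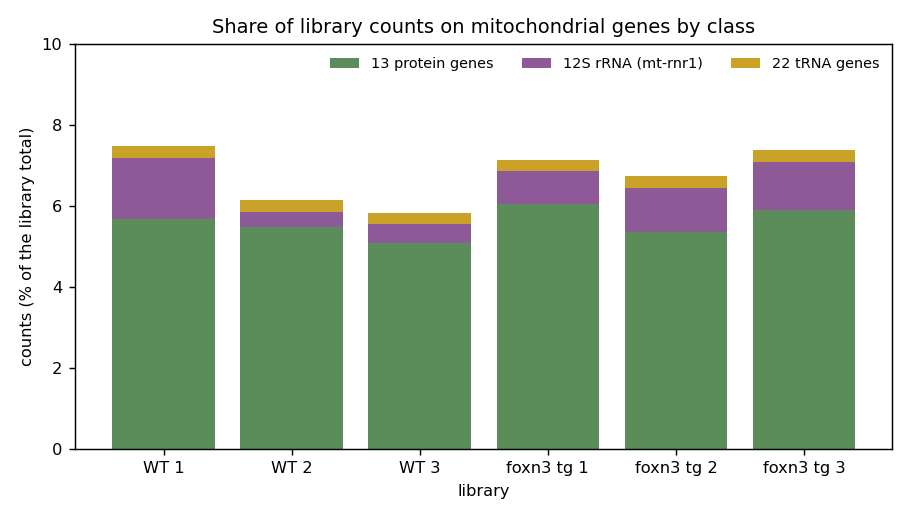
Stacked bars give the percent of all counts of each library (vertical axis) that fell on the 13 protein genes, on mt-rnr1 (12S rRNA) and on the 22 tRNA genes. The protein part lies between 5.09 and 6.04%, while the mt-rnr1 part runs from 0.37 to 1.51%.

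Levels were compared between genes as FPKM, the count scaled to gene length and to the total of the library. The subunits of cytochrome c oxidase (complex IV, which passes electrons to oxygen) stood highest among the protein genes. mt-co1, the catalytic subunit (M, 6425 to 7975, plus strand), averaged 11862 ± 334 FPKM in wild-type libraries and 12237 ± 899 in transgenic livers (SD, n = 3 each). mt-co2, which takes electrons from cytochrome c, averaged 11386 ± 997 and 11724 ± 868, and mt-co3 8796 ± 401 and 9250 ± 170. By raw count mt-co1 was the third most abundant gene of the table in each of the 6 libraries. mt-co1 stood above mt-co2 in 5 of 6 libraries, and mt-co2 stood above mt-co3 in all 6.

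The next protein genes in order of level were mt-atp6, the proton channel subunit of ATP synthase (complex V), at a mean of 5441 FPKM over 6 libraries, mt-nd1 of complex I at 4233, and mt-cyb, cytochrome b of complex III, at 3232. mt-atp6 exceeded mt-nd1 in 5 of 6 libraries, and mt-nd1 exceeded mt-cyb in all 6. The other genes of NADH dehydrogenase (complex I, where electrons enter the chain) and mt-atp8 lay close together. Their means were 2346 for mt-nd4, 2046 for mt-nd3, 1919.6 for mt-nd2, 1826.5 for mt-nd4l, 1711 for mt-atp8, 1686 for mt-nd5 and 1504 for mt-nd6. Among these 7, the only neighbours in the same order in all 6 libraries were mt-nd5 and mt-nd6. The highest and lowest protein genes differed 8.01-fold. Counts of short genes include reads that overlap an end by as little as 1 bp. Per possible start position of a 50-bp read, in place of length, mt-atp8 moved to the last place of the 13, and 8 rather than 5 of the 12 neighbour pairs kept their order in every library.

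Some of these genes are read from 1 shared messenger. mt-atp8 and mt-atp6 overlap, as do mt-nd4l and mt-nd4, and the deposited lengths of mt-atp6 and mt-nd4 leave out 7 bp each for this. The deposited entries of mt-atp8 and mt-nd4l end directly before the next gene starts, so they leave out the shared bases as well. The FPKM of mt-atp8 was 0.29 to 0.35 of that of mt-atp6 in the 6 libraries. The FPKM of mt-nd4l was 0.67, 0.73 and 0.73 of that of mt-nd4 in wild-type libraries and 0.87, 0.77 and 0.90 in transgenic libraries. All 3 transgenic ratios of the second pair thus lay above all 3 wild-type ratios, and no test was made of this ratio. Ratios of other gene pairs were looked at as well. How often such ratios lie apart between the groups over other gene pairs is not given here, so this is not read as a trait of the group. mt-nd6, the single protein gene of the minus strand (M, 14714 to 15232), stood at 0.81 to 0.96 of the FPKM of its neighbour mt-nd5.

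**Figure D2:**
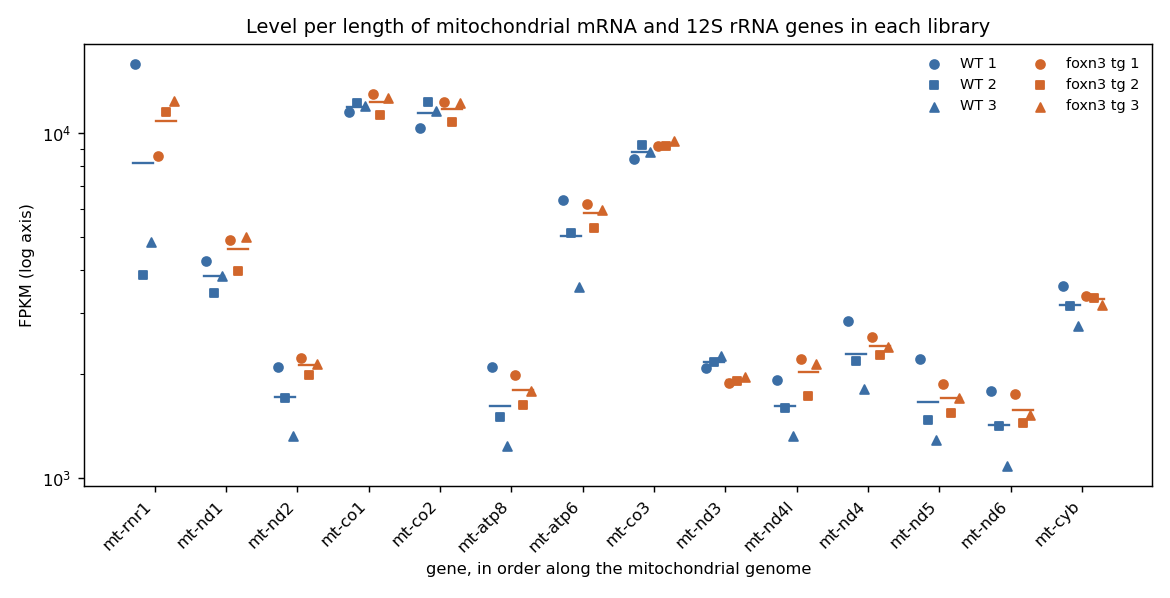
Points give the FPKM (log axis) of the 13 protein genes and mt-rnr1 (12S rRNA) in each library, in genome order, and bars give the mean of 3 libraries per group. The 3 complex IV genes lie highest among protein genes with little spread, mt-rnr1 spreads most, and wild-type library 3 is the lowest of 6 for 8 of the 13 protein genes.

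mt-rnr1, the RNA of the small mitochondrial ribosomal subunit (ENSDARG00000082753, M, 1020 to 1971, plus strand), varied more between libraries than any other mitochondrial entry. It had 163993, 45272 and 35646 counts in wild-type libraries 1 to 3 and 92660, 137181 and 128177 in transgenic libraries 1 to 3. Wild-type library 1 was the highest of the 6 and the other 2 wild-type libraries were the lowest, so the transgenic libraries lay inside the range of the wild-type group. As CPM (counts scaled to a common library total after TMM normalization) the means were 7633 ± 6106 in wild-type livers and 10604 ± 2573 in transgenic livers (SD, n = 3 each). The highest library stood 4.20-fold above the lowest, whereas for the 13 protein genes this ratio ran from 1.18 to 1.71. The log2 fold change, transgenic minus wild type, was 0.47 ± 0.48 (SE; adjusted p = 1 over all genes tested, edgeR). It was 1.36 without wild-type library 1 and 0.13 without wild-type library 2. Relative to the counts on protein genes, mt-rnr1 stood at 0.26, 0.068 and 0.091 in wild-type libraries and 0.14, 0.20 and 0.20 in transgenic libraries. Ribosomal RNA is the RNA class that kits for total RNA commonly deplete. The sources used here do not say whether it was depleted, and its part in these counts was not tested.

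For the group comparison, 0 of the 36 mitochondrial entries passed an adjusted p of 0.05 by edgeR in either direction, as did 0 of all 19573 genes tested (0% in each direction). Even foxn3 did not pass, with a log2 fold change of 2.74 ± 0.30 (SE) and an adjusted p of 0.112 (edgeR). An absence of calls at this threshold therefore does not show that levels were equal. At an unadjusted p under 0.05 edgeR had 0 mitochondrial entries, against 0.869% of all genes higher, 1.38% lower and 2.25% in either direction. DESeq2 also had 0 mitochondrial entries at an unadjusted p under 0.05, beside 135 genes higher and 269 lower of all 19573. At an adjusted p of 0.05 DESeq2 had 0 mitochondrial entries, while it called 0.00511% of all genes higher and 0% lower. Log2 fold changes were above 0 for 27 of 36 entries, or 75.0%, with a median of 0.11, beside 50.6% and a median of 0.0037 over all genes. By class, 12 of 13 protein genes and 14 of 22 tRNA genes had values above 0, with medians of 0.14 and 0.064. Transgenic library 2 weighs on this count. It had the lowest scaling factor, 0.848 against 0.967 to 1.07 in the others, and the largest share of exocrine pancreas markers, 1.07%. It also had the highest CPM for 17 of the 36 entries. A low scaling factor raises every CPM of a library, and the same count over all genes is not given here. Without transgenic library 2 the count above 0 was 14 of 36 entries, beside 46.6% of all genes. Of the protein genes only mt-nd3 (-0.24) and mt-cyb (-0.0044) were then below 0, and mt-rnr1 was at 0.30. Most entries below 0 were thus tRNA genes, though some protein genes were near 0, such as mt-co3 at 0.021. With library totals alone 25 of 36 entries were above 0, beside 40.5% of all genes. The part of the pancreas RNA in these counts was not tested.

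**Figure D3:**
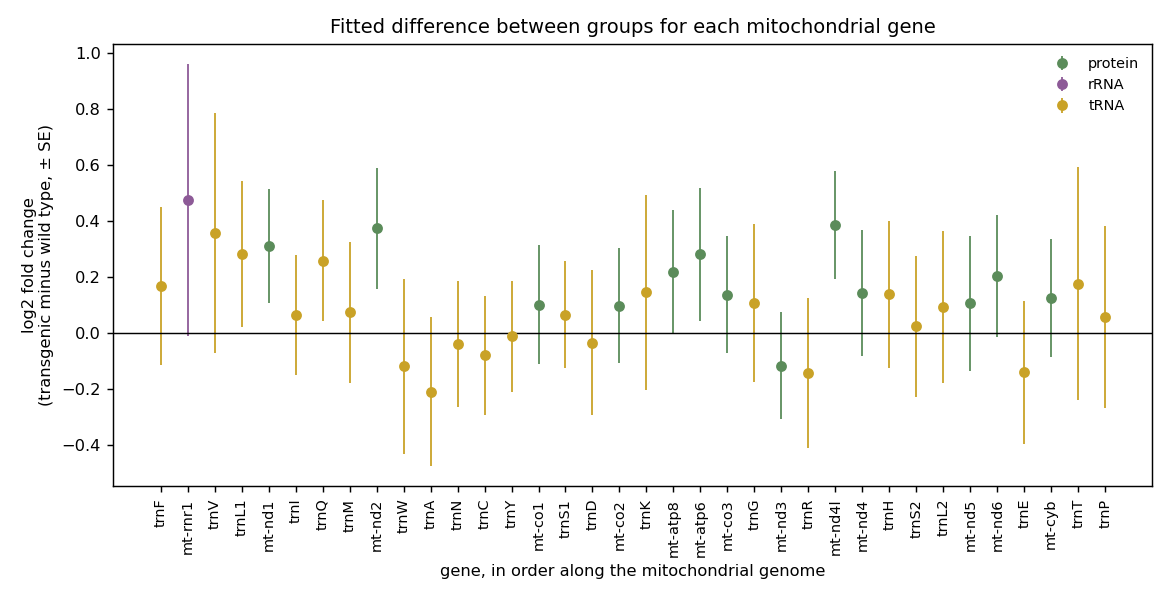
Points give the log2 fold change (transgenic minus wild type) of each of the 36 entries in genome order, with bars of 1 standard error, coloured by class. Values run from -0.21 for trnA to 0.47 for mt-rnr1, and edgeR called 0 entries at an adjusted p of 0.05.

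Among the complex I genes the largest fold change belonged to mt-nd4l, a small membrane subunit (ENSDARG00000063916, M, 11009 to 11298). It had 542, 437 and 399.7 CPM in wild-type libraries and 619, 595 and 588 CPM in transgenic libraries, so the groups did not overlap on this scale. Its log2 fold change of 0.38 ± 0.19 (SE) had the smallest p of the 36 entries, 0.077 before and 1 after adjustment (edgeR). mt-nd1, a membrane subunit beside the quinone site (ENSDARG00000063895, M, 3803 to 4777), had 4033, 3162 and 3892 CPM in wild-type libraries and 4572, 4571 and 4595 CPM in transgenic libraries. The coefficient of variation of the 3 transgenic values was 0.30%, and the groups did not overlap. This small spread depended on the scaling. In FPKM, which uses unscaled totals, mt-nd1 averaged 3850 ± 402 in wild-type and 4616 ± 564 in transgenic libraries (SD, n = 3 each). The log2 fold change of mt-nd1 was 0.31 ± 0.20 (SE; edgeR, adjusted p = 1).

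These 2 of 36 entries (5.56%) were the only ones whose groups did not overlap in CPM, both higher in the transgenic group, beside 3.31% of all genes higher, 3.15% lower and 6.45% in either direction. The scaling decided it for both. As shares of the unscaled total, mt-nd1 and mt-nd4l in transgenic library 2 lay inside the wild-type range: mt-nd1 had FPKM of 4249, 3446 and 3853 in wild-type libraries and 4882, 3968 and 4997 in transgenic libraries. On the unscaled total the groups did not overlap for 1 other entry, mt-nd3, on the lower side, beside 4.14% of all genes lower and 1.5% higher.

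mt-nd3, another membrane subunit of complex I (ENSDARG00000063914, M, 10590 to 10938), was the 1 protein gene with a negative fold change. It had FPKM of 2092, 2173 and 2254 in wild-type libraries and 1882, 1908 and 1968 in transgenic libraries. In CPM the groups overlapped (711, 714 and 815 in wild-type, 631, 787 and 648 in transgenic libraries), with a log2 fold change of -0.12 ± 0.19 (SE; edgeR, adjusted p = 1). Leaving out 1 library moved this value between -0.24 (without transgenic library 2) and -0.045 (without wild-type library 3), and it was -0.064 without transgenic library 1 and -0.071 without transgenic library 3. As a share of the counts on the 13 protein genes, which no library scaling touches, mt-nd3 held 1.29, 1.39 and 1.55% in wild-type libraries and 1.09, 1.25 and 1.17% in transgenic libraries. The groups did not overlap on that scale either. That share uses the same counts, and higher counts of the other protein genes lower it. It is therefore no separate support, and no share of all genes is given for that scale. This gene was singled out after its values were seen, and 3 libraries against 3 cannot give an exact two-sided permutation p below 0.10.

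The other complex I genes had log2 fold changes of 0.37 ± 0.22 for mt-nd2, 0.20 ± 0.22 for mt-nd6, 0.14 ± 0.22 for mt-nd4 and 0.11 ± 0.24 for mt-nd5 (SE). Those of complex V were 0.28 ± 0.24 for mt-atp6 and 0.22 ± 0.22 for mt-atp8. Complex III's mt-cyb had 0.12 ± 0.21. The complex IV genes had 0.10 ± 0.21 for mt-co1, 0.10 ± 0.21 for mt-co2 and 0.14 ± 0.21 for mt-co3. For each of these 10 genes the groups overlapped in CPM and edgeR's adjusted p was 1. Most of these values moved by over 1.5 times when 1 library was left out. Without wild-type library 1 they were 0.33 for mt-nd4, 0.36 for mt-nd5, 0.39 for mt-nd6, 0.45 for mt-atp8, 0.49 for mt-atp6, 0.22 for mt-cyb and 0.028 for mt-co2. Without wild-type library 3 they were 0.035 for mt-nd4, -0.015 for mt-nd5, 0.071 for mt-nd6, 0.092 for mt-atp8, 0.12 for mt-atp6, 0.069 for mt-cyb and 0.15 for mt-co2. Without wild-type library 2 they were 0.087 for mt-nd4, 0.0063 for mt-nd5 and 0.14 for mt-atp8. Without transgenic library 2 they were 0.043 for mt-co1, 0.042 for mt-co2, 0.021 for mt-co3, 0.068 for mt-nd4, 0.061 for mt-nd5 and -0.0044 for mt-cyb, and without transgenic library 3 they were 0.17 for mt-nd5 and 0.21 for mt-cyb. mt-nd2 stayed between 0.25 and 0.54 under all 13 alternatives. The authors' deposited table gives log2 ratios of -0.10 to 0.33 for the 13 protein genes, with adjusted p-values of at least 0.9998.

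The make-up of the mitochondrial messages differed more among wild-type than among transgenic libraries. CPM follows the level of each gene rather than its share of the protein-gene counts. The standard deviation of CPM was larger in the wild-type group for 9 of 13 protein genes. It was larger there for 1 of the 3 complex IV genes and for 13 of 22 tRNA entries. The same count over all genes is not given here, so whether this spread is particular to mitochondrial genes was not tested. No test of the spread was made. The median coefficient of variation of the protein genes was 16.1% in wild-type libraries and 7.57% in transgenic livers. For the 3 complex IV genes it was 5.41% and 5.63%. Complex IV genes held 55.5, 63.2 and 65.7% of the protein-gene counts in wild-type libraries 1 to 3 and 59.18, 59.9 and 60.0% in transgenic libraries 1 to 3. Complex I genes held 29.0, 23.4 and 23.0% and then 26.9, 25.8 and 26.5%. Complex V genes held 8.21, 6.77 and 5.15% and then 7.50, 7.22 and 7.36%. Wild-type libraries 1 and 3 were thus at opposite ends for complexes IV and V, with the transgenic libraries between them.

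Single genes lay at the same ends. The count of mt-atp6 relative to mt-co3, its downstream neighbour, was 0.66, 0.48 and 0.35 in wild-type libraries and 0.59, 0.50 and 0.55 in transgenic libraries. In wild-type library 3 the shares of mt-atp6, mt-atp8, mt-nd2, mt-nd4l, mt-nd4, mt-nd5 and mt-nd6 were the lowest of the 6 libraries, while those of mt-co1, mt-co2, mt-co3 and mt-nd3 were the highest. In wild-type library 1 the shares of mt-nd4, mt-nd5, mt-nd6, mt-atp8, mt-atp6 and mt-cyb were the highest. Wild-type library 3 also had the lowest total count, 7732478, and wild-type library 1 the largest share of mt-rnr1. The part of these in the make-up was not tested.

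**Figure D4:**
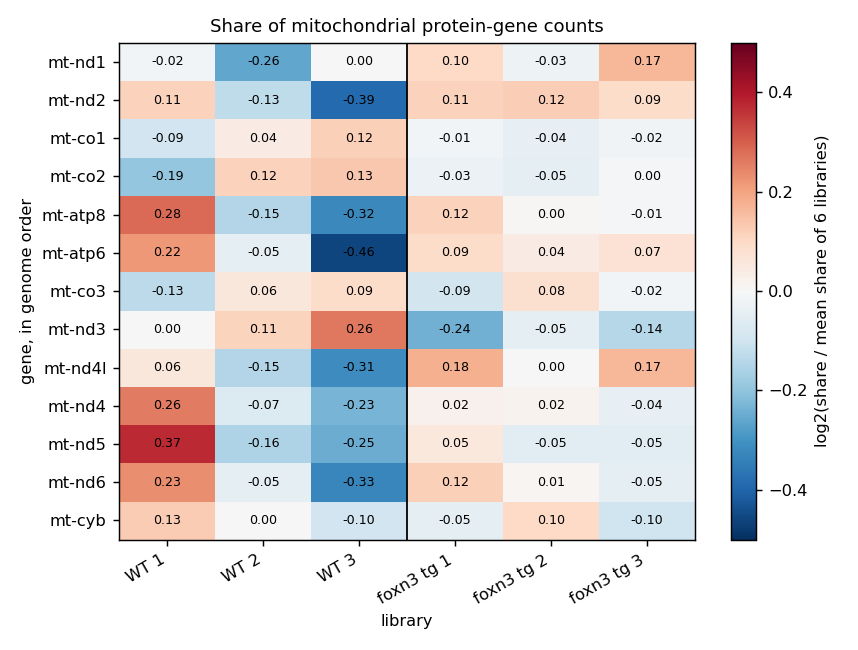
Colours and numbers give the log2 ratio of each gene's share of the 13 protein genes' counts to its mean share over 6 libraries. The range is widest in wild-type library 3, where mt-atp6 is at -0.46 and mt-nd3 at 0.26, and in wild-type library 1, where mt-nd5 is at 0.37.

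The tRNA entries are 68 to 77 bp long, which is little more than a 50-bp read, and averaged from 23.5 to 17418 counts. They are set beside their neighbours as counts per possible start position of a read, scaled to the library total. On that scale 18 of 22 tRNA entries lay below every protein gene, whose means ran from 1.31 to 11.7. Reads of flanking genes that reach into an entry by 1 bp are counted for it. How well RNAs this short entered the libraries was not tested, so a low density is not read as a low amount of tRNA. The lowest were trnV (valine), at 15 to 40 counts in a library, trnT (threonine), at 21 to 88, and trnF (phenylalanine), at 41 to 85. trnF and trnV flank mt-rnr1, and their density was at most 0.010 of that of mt-rnr1 in each library.

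The highest tRNA entries by count were trnS1 (serine, AC024175.9), trnL1 (leucine, AC024175.19) and trnY (tyrosine, AC024175.1). trnS1 held 51.2 to 57.3% of all tRNA counts. It had 16921, 20653 and 11723 counts in wild-type libraries and 17519, 19267 and 18423 in transgenic libraries. It lies directly after mt-co1 but on the minus strand, and its density was 1.16, 1.19 and 1.09 times that of mt-co1 in wild-type libraries and 1.02, 1.18 and 1.16 times in transgenic libraries. In mammals the message of this subunit runs on past its stop codon through the complement of this tRNA gene. The libraries were made with a kit that keeps strand, but the sources used here do not say whether the counting used strand, so reads from the 2 strands of trnS1 cannot be told apart. trnL1 had a density of 0.69 to 1.31 times that of mt-nd1, the gene after it. The gene before it is mt-rnr2, which was not analysed here, so trnL1 could not be set beside that neighbour.

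Other minus-strand entries differed in how they stood to their plus-strand neighbours. trnQ (glutamine) had 1.03, 1.05 and 1.03 times the density of trnI (isoleucine) in wild-type libraries and 1.22, 1.17 and 1.15 times in transgenic libraries. The groups did not overlap in this ratio, which was not tested. It was picked from many density ratios looked at, and the groups overlapped in the rest. How often such ratios lie apart over other gene pairs is not given here, so it is not read as a trait of the group. On its other side trnQ had 0.80 to 1.07 times the density of trnM (methionine) over the libraries. trnA (alanine) had 0.94 to 1.31 times that of trnW (tryptophan). trnY stood at 0.13 to 0.18 of mt-co1, which starts directly after it. The minus-strand entries together held 4.10 to 4.95% of mitochondrial counts.

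**Figure D5:**
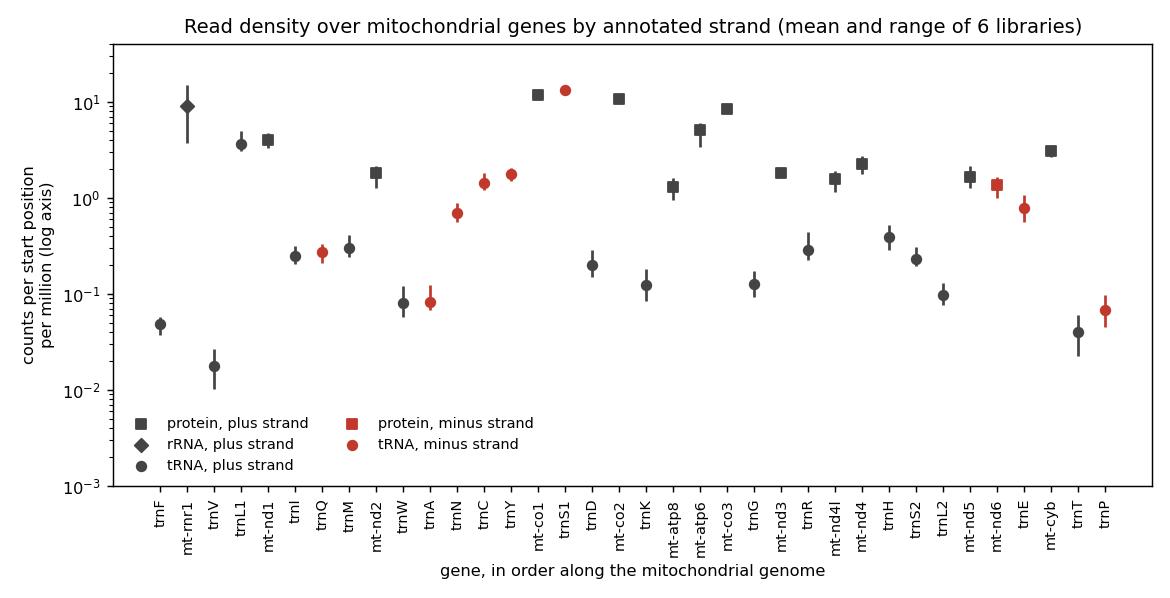
Points give the mean over 6 libraries of counts per possible start position of a read, scaled to the library total (log axis), for the 36 entries in genome order, coloured by annotated strand, and lines give the range over libraries. The minus-strand trnS1 lies at the level of mt-co1 and mt-co2, and most other tRNA entries lie below the protein genes.

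Between the groups the tRNA entries had log2 fold changes from -0.21 (trnA) to 0.36 (trnV), with standard errors of 0.19 to 0.43, and for all 22 the groups overlapped in CPM. The values were 0.065 ± 0.19 for trnS1, 0.28 ± 0.26 for trnL1, -0.012 ± 0.20 for trnY, 0.18 ± 0.42 for trnT and 0.17 ± 0.28 for trnF (SE). In edgeR's test the adjusted p of each was 1.

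Nuclear genes that act on the mitochondrial genome were taken from 5 lists: transcription, RNA processing, DNA replication, translation with tRNA charging, and regulators of mitochondrial mass. Of their 90 genes tested, 0 passed an adjusted p of 0.05 and 0 had an unadjusted p under 0.05 by edgeR, beside 0% and 2.25% of all genes. Fold changes were above 0 for 55 of 90, beside 50.6% of all genes, with a median of 0.038 on the log2 scale. Without transgenic library 2 the count was 31 of 90, beside 46.6% of all genes. With library totals alone it was 39 of 90, beside 40.5% of all genes. polrmt, the mitochondrial RNA polymerase, averaged 19.8 ± 1.94 CPM in wild-type libraries and 17.9 ± 2.60 in transgenic livers (SD, n = 3 each), and tfam, which packages mitochondrial DNA and starts its transcription, 20.9 ± 4.75 and 22.1 ± 0.763. Log2 fold changes were -0.15 ± 0.19 for polrmt, 0.088 ± 0.20 for tfam and 0.22 ± 0.22 for tfb2m, which melts the promoter (SE). They were 0.081 ± 0.20 for lrpprc, which stabilizes mitochondrial messages, 0.0064 ± 0.21 for POLG, the mitochondrial DNA polymerase, and -0.052 ± 0.21 for the gene matched to ppargc1a, a coactivator of mitochondrial biogenesis. No match was found for the names tefm, slirp and twnk, which are not analysed here.

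The nuclear partners in the 4 complexes that hold mitochondrially encoded subunits had values above 0 for 62 of 79 genes, a median of 0.11 on the log2 scale and 0 genes at an unadjusted p under 0.05, beside 50.6% above 0, a median of 0.0037 and 2.25% over all genes. Transgenic library 2, whose low scaling factor raises every CPM, had the highest summed CPM of the listed nuclear genes for each complex. Without it 29 of 79 genes were above 0, beside 46.6% of all genes, with a median of -0.065. Without wild-type library 1 the count was 44 of 79, beside 51.8% of all genes, with a median of 0.017. Leaving out any other single library gave 67 to 70 of 79. With library totals alone 48 of 79 were above 0, beside 40.5% of all genes. By complex the medians were 0.11 for I, 0.073 for III, 0.051 for IV and 0.20 for V, and without transgenic library 2 they were -0.052, -0.086, -0.19 and 0.076. Summed CPM of the mitochondrial genes over that of the listed nuclear genes of the same complex were 7.17, 4.65 and 4.40 for complex I in wild-type libraries and 6.69, 5.08 and 5.64 in transgenic libraries. For complex V they were 0.91, 0.67 and 0.44 and then 0.87, 0.61 and 0.69, and for complex IV they were 17.9 to 20.4 and 16.2 to 22.4. The sums are not scaled to gene length. The nuclear names matched were 39 of 42 for complex I, 13 of 22 for IV and 16 of 27 for V. The size of these ratios is therefore not compared between complexes. The groups overlapped in each of these ratios, and those of complexes I and V were highest in wild-type library 1 and lowest in wild-type library 3.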

How the data were processed

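RNA of 3 wild-type and 3 foxn3-transgenic liver libraries was, per the labels, made into stranded libraries and read as 50-bp single ends. The submitters' processing notes name Novoalign, an aligner, DESeq2 and the build Zv9, with no tool version. The authors deposited raw counts of alignments that overlap a gene by at least 1 bp, per the file headers, and FPKM scaled to gene length and library total, which differ by at most 0.16% from values recomputed from the counts. The deposited log2 ratios and the deposited scores (10 times the negative log10 of the adjusted p) are the authors' DESeq2 comparison. Gene lengths leave out bases masked for overlapping annotations, per the file headers. The authors set aside 10508 IDs as under 10 counts and 6 as over 50000 counts; the rule behind the latter is unclear, since 5 mitochondrial entries exceed it in a library and were kept. Shares are of the totals of the deposited table, without those IDs. For 26 of 36 mitochondrial entries end minus start equals the length, so starts are printed plus 1.

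Groups were compared in R 4.3.3 with edgeR 4.0.16 (TMM, filterByExpr, glmQLFit, glmQLFTest, Benjamini-Hochberg over 19573 genes at 0.05, no covariate). SE is the fold change over the square root of F. Alternatives were other scalings, no filter, DESeq2 1.42.0, limma-voom (limma 3.58.1), a replicate block and leaving out each library. No 2 libraries of a group were treated as duplicates (chi-square per gene 17.5 to 30.7). Depth limits the precision of entries with few counts.

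The members and lists were chosen with earlier results of these data known. Named genes are all protein and rRNA entries, the 3 highest and 3 lowest tRNA entries by count, and nuclear genes fixed by role. Of 101 machinery names 90 matched the table or the reference, and of 101 names of complex subunits 76 did. Other tRNA entries are named for their position.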

Additional observations from a re-analysis of the deposited data

How the results depend on the processing

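The call of 0 mitochondrial entries held under all 13 alternatives, with adjusted p-values of at least 0.998 for the 20 entries followed. Over all genes 1 gene (foxn3, higher) was called by DESeq2 (adjusted p = 8.9e-15), 1 by edgeR with the replicate block (adjusted p = 0.024), and 0 to 1 without single libraries, the 1 being foxn3 without wild-type library 3; the cause was not tested. The count of entries above 0 ran from 14 (without transgenic library 2) to 33 (without transgenic library 3). Counted the same way after seeing the data, the nuclear genes of the complexes above 0 ran from 29 to 70 of 79 and those of the machinery from 31 to 62 of 90, the lowest both without transgenic library 2. The labels do not state that same-numbered libraries are paired, so the main fit used no pairing. Their deviations from the group means correlated at 0.34, -0.11 and 0.16, which cannot decide the question with 3 libraries per group. With the replicate block 29 entries were above 0. Signs turned for 8 of 20 entries: without wild-type library 3, mt-nd5 was at -0.015, trnT at -0.057 and trnY at 0.14; without transgenic library 2, mt-cyb was at -0.0044, trnV at -0.093, trnT at -0.30, trnF at -0.088, trnL1 at -0.076 and trnS1 at -0.032. trnY, at -0.012, was at 0.0010 by limma-voom, 0.0028 with the replicate block, 0.0076 without transgenic library 1 and 0.019 without transgenic library 3. The other ends of their ranges over single left-out libraries were 0.36 for mt-nd5, 0.22 for mt-cyb, 0.67 for trnV, 0.62 for trnT, 0.35 for trnF and -0.13 for trnY (each without wild-type library 1), and 0.45 for trnL1 and 0.12 for trnS1 (without transgenic library 1). The difference in the mitochondrial share of counts, 0.60 percentage points, ran from 0.27 without wild-type library 3 to 1.096 without wild-type library 1, and was 0.35 without mt-rnr1, an alternative chosen after seeing the data. For the mt-rnr1 share of mitochondrial counts the difference of 3.19 points ran from 0.53 without wild-type library 2 to 7.57 without wild-type library 1. For the complex IV share it was -1.80, from -4.77 without wild-type library 1 to 0.29 without wild-type library 3. Neighbour pairs in constant order numbered 8 per start position against 5 per length, and 5 to 7 without single libraries. No deposited coordinates of mitochondrial entries overlap, so leaving out overlapping genes was not run. Entries with a deposited length below their span were left out, an alternative chosen after seeing the data that keeps mt-atp8 and mt-nd4l. The differences in the mt-rnr1 and complex IV shares were then 4.10 and -1.72. The lowest tRNA entries, at 15 to 88 counts, are limited by depth.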
